A study of Mus musculus with 10 samples.

Results

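Potassium channel genes were followed in the testis of mice with and without the transcription factor CREM. The members were all genes whose symbol starts with Kcn. The array measured 92 of them, by 95 features with that single symbol, out of 19661 genes and 25689 features in all. A gene with several features was represented by the one with the highest mean over the 10 arrays. Of the members 89 code for proteins, which are channel pores, their auxiliary subunits and a regulator, and 3 are antisense RNAs (Kcnmb4os1, Kcnmb4os2 and Kcnd3os).

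Potassium channels let potassium ions cross the cell membrane and so help to set the membrane potential. Pores open in response to voltage, to calcium or sodium inside the cell, to pH or to G proteins, or they leak at rest, and auxiliary subunits tune their gating. Kcnu1 encodes SLO3, the pH- and voltage-sensitive potassium channel of the sperm tail. In mice SLO3 carries the hyperpolarising current that accompanies capacitation, and males without it are infertile.

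Whole testis RNA came from 5 wild-type (WT) mice and 5 Crem-/- mice (KO), with 1 mouse per GeneChip Mouse Gene 1.0 ST array. All mice were 8 weeks old, of mixed strain (129Pas x C57Bl/J) and untreated, and were killed by cervical dislocation at 7 am, when the lights came on (0 h). The KO mice carry the disrupted gene in every cell, so somatic and germ cells of the testis both lack it. The labels name 4 batches without saying what a batch is. Batch 2 held WT replicates 1 to 3 and KO replicate 3, batch 4 held WT replicate 5 and KO replicates 1, 4 and 5, batch 1 held KO replicate 2 and batch 3 held WT replicate 4. Values are log2 RMA levels, a change is the KO mean minus the WT mean of these levels, its standard error (SE) comes from the limma fit, and a gene was called at a limma adjusted p under 0.05. Because whole testis was measured, fewer cells of a type and less RNA per cell cannot be told apart.

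The labels were checked first. Crem, measured as an average along the gene, read 10.89, 11.04, 10.96, 10.93 and 10.94 in WT replicates 1 to 5 and 9.29, 9.29, 9.41, 9.01 and 9.18 in KO replicates 1 to 5, so every KO array lay below every WT array. The arrays were alike in overall level (medians 7.11 to 7.15). Of 10 spermatid markers 9 fell and Acrv1 (0.15) was not called, and the log2 of their summed level was 16.07 to 16.28 in WT and 13.25 to 13.80 in KO, with KO replicates 2 and 3 highest (13.80 each). The summed spermatocyte markers were 14.18 to 14.36 in WT and 14.39 to 14.48 in KO (6 of 10 rose), those of spermatogonia 11.55 to 11.75 and 11.66 to 11.86 (3 of 10 rose, 1 fell), of Sertoli cells 13.32 to 13.50 and 13.54 to 13.86 (5 of 11 rose), of Leydig cells 13.11 to 13.37 and 13.49 to 14.16 (6 of 7 rose), and of peritubular and vascular smooth muscle 11.59 to 11.76 and 11.67 to 12.04 (3 of 10 rose). Of 8 endothelial markers 3 rose and 1 fell (9.83 to 9.89 in WT, 10.50 to 10.68 in KO), of 8 macrophage markers 7 rose and Aif1 fell (12.18 to 12.36 in WT, 11.16 to 11.75 in KO), and of 7 epididymis markers 1 fell (8.66 to 8.83 in WT, 8.60 to 8.75 in KO). Of all genes 31.1% were called higher and 13.2% lower. The shares of rises among spermatogonium (30%), smooth muscle (30%) and endothelial (37.5%) markers were near that of all genes.

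The family as a whole moved little, and a few members stood far from the rest. Of the 92 members 13 were lower in KO (14.1%, against 13.2% of all genes) and 18 were higher (19.6%, against 31.1% of all genes), while 61 were not called. The median change of the members was −0.03, that of all genes 0.07, and the median size of a change was 0.13 for the members and 0.18 for all genes. A change under 0.5 in size was measured for 80 of 92 members and for 16865 of all 19661 genes. The WT and KO arrays did not overlap in 20 members (21.7%, against 32.7% of all genes). By at least 1 in log2, that is by at least 2-fold, 5 members fell (Kcnu1, Kcnab3, Kcnk2, Kcnip2 and Kcnk5, against 4.36% of all genes) and 1 rose (Kcnh8, against 1.37%). The lower share was thus near that of all genes, and the higher share was below it.

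More rises than falls lost their call under some treatments of batches or of centring. All 13 falls remained called with batch as a fixed block and with arrays centred on 9 housekeeping genes. Of the 18 rises 12 remained with the fixed block and 14 with that centring. With batch as a random block, or with arrays centred on their median, all 13 falls and all 18 rises remained called. These 2 settings could change little, because the correlation within batches was 0.0214 and the array medians were 7.11 to 7.15. The fit with the fixed block, from here on the block, called 14 members lower and 13 higher, and the centring on housekeeping genes 14 and 14. With neither, rises were 58.1% of the calls among members and 70.1% among all genes. They were 48.1% and 68.7% with the block, and 50% and 63.6% with housekeeping centring. Within batch 2 or batch 4 alone, rises also made up a smaller share of the calls over all genes. Within batch 2, which holds a single KO array, 9 members were lower and 2 higher, and within batch 4, which holds a single WT array, 10 and 9. The sign was the same in batch 2 for all 13 falls and all 18 rises, and in batch 4 for all 13 falls and 17 of 18 rises, the exception being Kcnc2 (−0.04 in batch 4). When 1 array was left out, 1 fall (Kcnmb4os2) and 3 rises (Kcnn2, Kcne2 and Kcnc2) lost their call. For Kcnc2, a Kv3 pore that changed by 0.25, this took the removal of any of WT replicates 1 and 3 (0.21 each) and KO replicates 3 and 5 (0.24 each).

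**Figure D1:**
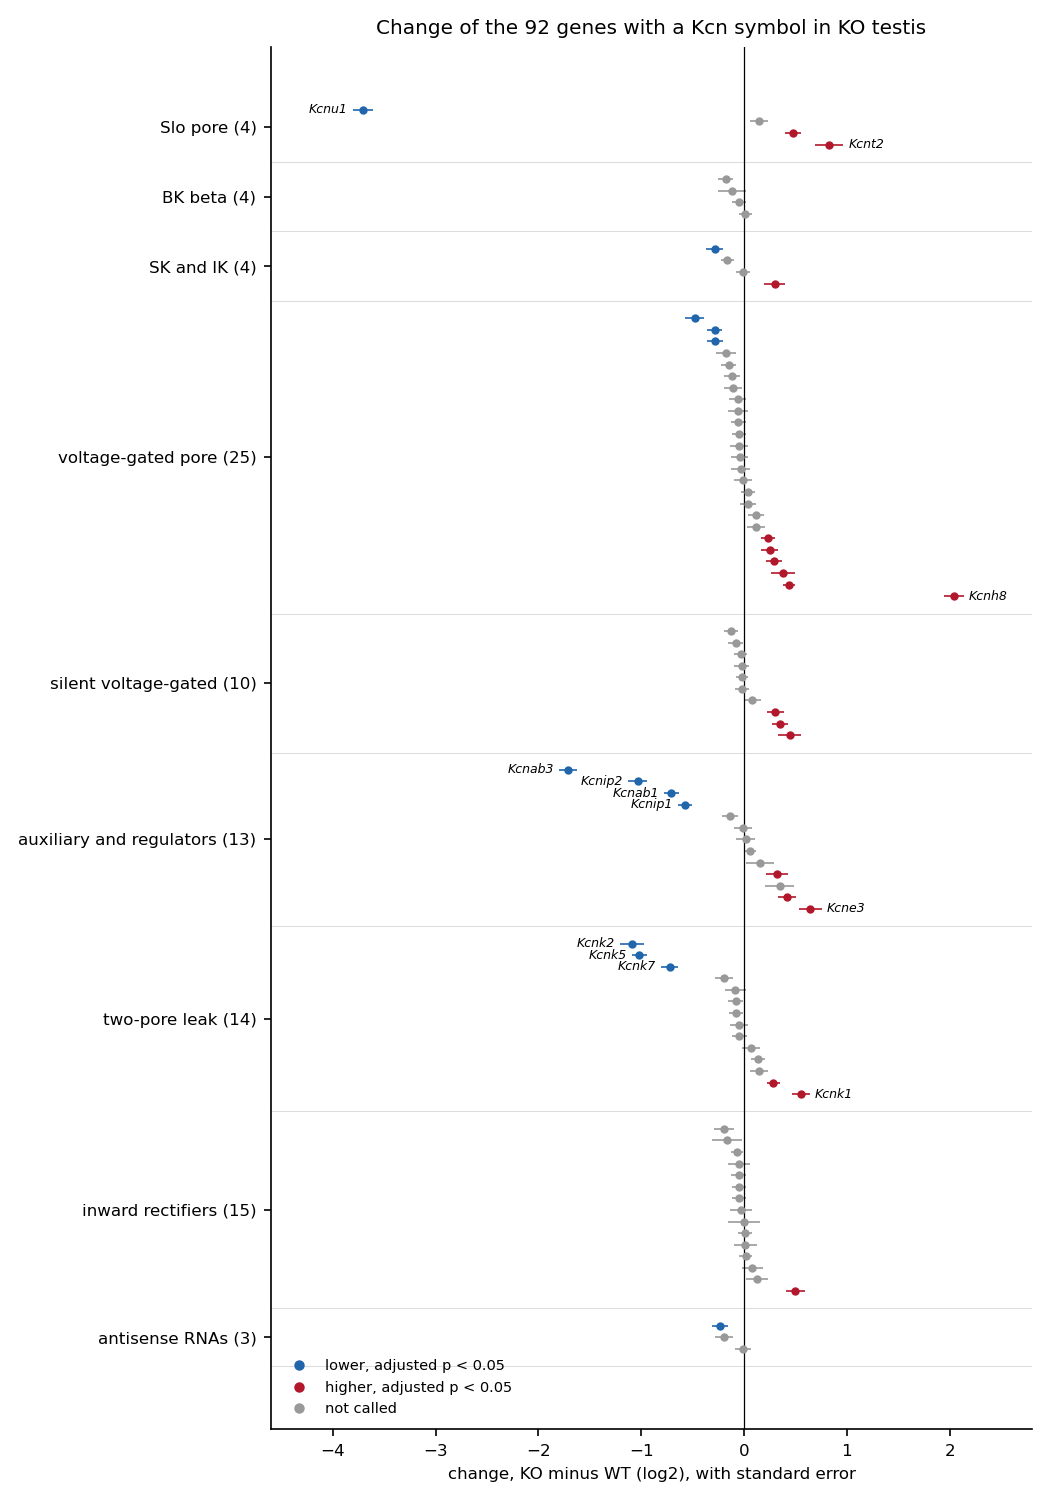
Change in KO testis (horizontal axis, KO minus WT in log2, bars show the standard error) of the 92 Kcn genes, grouped by role with the number of genes in brackets and ordered by change. Most genes lie close to 0, Kcnu1 (−3.70) and Kcnh8 (2.04) lie farthest out, and names are given for changes of at least 0.5 in size.

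Among the 4 pores of the Slo family, 1 fell (25%, against 13.2% of all genes), 2 rose (50%, against 31.1%) and 1 was not called. Kcnu1, on chromosome 8, read 10.84, 10.89, 10.81, 10.67 and 10.57 in WT replicates 1 to 5 and 7.00, 7.18, 7.24, 7.12 and 6.71 in KO replicates 1 to 5. The lowest WT array lay more than 3 log2 units above the highest KO array. The level left in a KO mouse was 6.06% to 8.74% of the WT mean. The change was −3.70 ± 0.10 (SE, n = 5 per group, limma adjusted p = 4.32e-12), and 186 of all 19661 genes (0.946%) fell by at least as much. Within batch 2 it was −3.60, within batch 4 −3.63, in the blocked fit −3.62, and −3.81 with neither KO replicate 2 nor 3, the arrays with the highest summed spermatid markers. Most spermatid markers fell in the same KO mice, and their part in the fall of Kcnu1 was not tested. The measured genes nearest to Kcnu1 in the RefSeq order both rose. Ash2l, a subunit of histone methyltransferase complexes, rose by 0.36 ± 0.06 (SE, limma adjusted p = 0.000214). Hgsnat, a lysosomal acetyltransferase, rose by 0.35 ± 0.10 (SE, limma adjusted p = 0.0115).

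The other Slo pores did not share the fall. Kcnt2, which encodes the sodium-activated channel Slick, read 5.35, 5.26, 5.08, 5.25 and 5.19 in WT and 5.98, 6.13, 5.61, 5.96 and 6.58 in KO, a rise of 0.83 ± 0.14 (SE, limma adjusted p = 2.76e-04). The groups did not overlap, KO replicate 5 was highest, and the feature lay in the lowest 25% of features by mean level. The rise of Kcnt2 was 0.38 in batch 2 (limma adjusted p = 0.10, not called), 0.98 in batch 4 and 0.68 with the block. Kcnma1, the calcium- and voltage-activated BK channel, rose from 6.86 ± 0.10 to 7.33 ± 0.13 (SD, n = 5 each, limma adjusted p = 1.88e-04), but its second feature, at a mean of 4.72 in WT, changed by −0.05 ± 0.09 (SE, limma adjusted p = 0.728). The rise of Kcnma1 therefore rests on 1 of 2 features. Kcnt1, the sodium-activated channel Slack, changed by 0.14 and was not called.

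None of the 4 beta subunits of the BK channel (Kcnmb1 to Kcnmb4) was called, with changes of −0.18 to 0.01. Kcnmb1, the smooth muscle subunit, changed by −0.18 ± 0.07 (SE, limma adjusted p = 0.0672), and its WT and KO arrays overlapped. It was called lower with arrays centred on the housekeeping genes (−0.22), without WT replicate 3 (−0.21), without KO replicate 3 (−0.22) and with neither KO replicate 2 nor 3 (−0.23). Kcnmb3 (−0.12) was called lower within batch 4 (−0.67, limma adjusted p = 0.0134), and its change was 0.07 within batch 2 and −0.30 with the block.

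**Figure D2:**
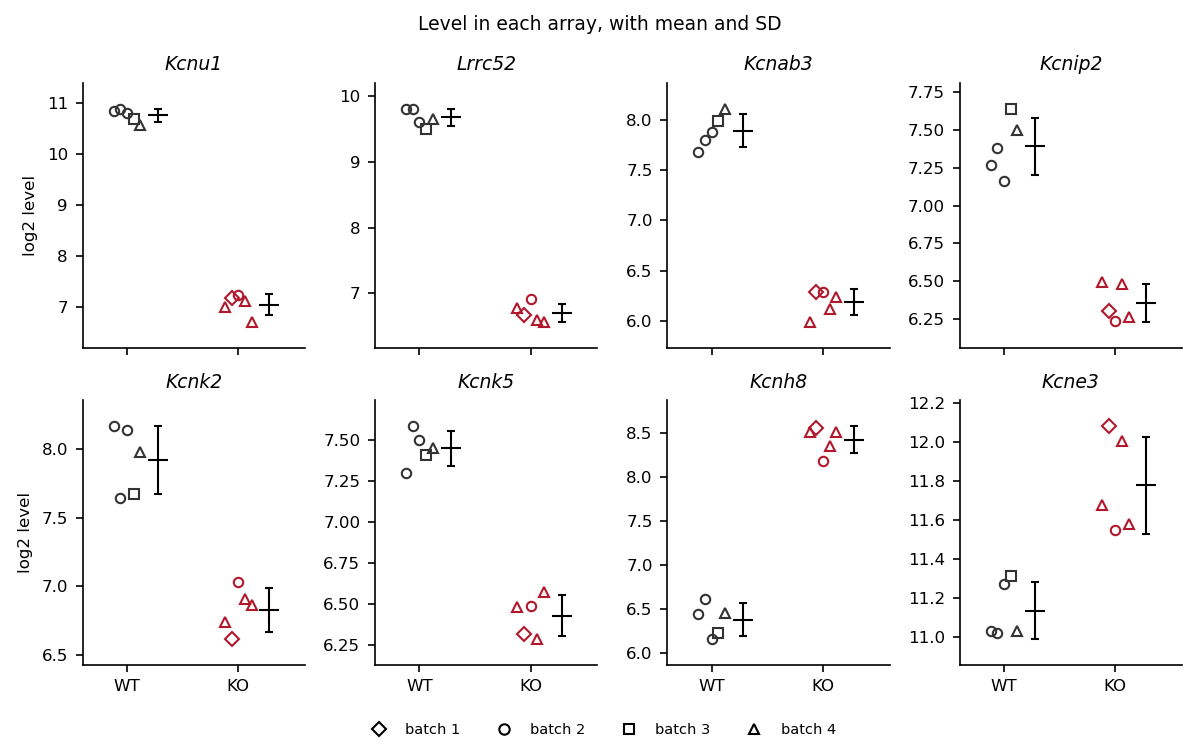
Log2 level (vertical axes, scaled per gene) of 8 genes in the 5 WT and 5 KO arrays, where the symbol shape gives the batch and the bar at the right of a group its mean ± SD. Kcnu1 and its partner Lrrc52 fell to near 7 in every KO array, Kcnab3, Kcnip2, Kcnk2 and Kcnk5 changed by −1.71 to −1.02, and Kcnh8 and Kcne3 rose, with no overlap between the groups in any of the 8 genes.

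Lrrc52 has no Kcn name but encodes the gamma subunit that assembles with SLO3 in testis and shifts its activation. It read 9.81, 9.81, 9.61, 9.51 and 9.65 in WT replicates 1 to 5 and 6.77, 6.67, 6.91, 6.60 and 6.57 in KO replicates 1 to 5, so the channel and its subunit were both low in every KO array. The change was −2.97 ± 0.08 (SE, limma adjusted p = 5.88e-12), and 281 genes (1.43%) fell by at least as much. Within batch 2 the change was −2.83 and within batch 4 −3.002, against −2.91 in the blocked fit. Of the 9 listed partners of potassium channels outside the Kcn names, 4 fell (44.4%), 2 rose (22.2%) and 3 were not called (median −0.12). Among all genes 13.2% were lower and 31.1% higher. Among the relatives of Lrrc52, which are gamma subunits of the BK channel, Lrrc55 fell by 1.26 ± 0.11 (SE, limma adjusted p = 7.41e-07) and Lrrc26 by 0.67, while Lrrc38 changed by −0.12 and was not called. Dpp6 and Dpp10, transmembrane partners of Kv4 channels, moved in opposite directions, by −0.60 ± 0.13 (SE, limma adjusted p = 0.00209) and 0.72 ± 0.25 (SE, limma adjusted p = 0.0345). The WT arrays of Dpp10 ranged from 5.03 to 6.62 and overlapped the KO arrays, at 6.25 to 7.15. The 2 rises became 1 when any of WT replicates 1, 3 or 5 or KO replicates 2, 4 or 5 was left out. Abcc9, the sulfonylurea receptor of muscle-type ATP-sensitive channels, rose by 0.44, and Abcc8 (−0.10) and Amigo1 (−0.10) were not called.

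CREM binds the cAMP response element (CRE), TGACGTCA, and also its core TGACG, and the promoters of the partners Lrrc52 and Lrrc55, which fell, are shown with those of 2 members that fell (Kcnip2, Kcnk5) and 2 that rose (Kcnh8, Kcnt2) so that the letters can be seen beside the changes. The sequences are from RefSeq (GRCm38.p6), 5′ to 3′ on the gene's strand, from 250 bases before the annotated start up to the start. The stretch of Kcnh8 alone runs 1 base further, and its core ends on that base. Capitals mark the core, here on the other strand as CGTCA.
Lrrc52 (chr1:167466781-167467030, minus strand): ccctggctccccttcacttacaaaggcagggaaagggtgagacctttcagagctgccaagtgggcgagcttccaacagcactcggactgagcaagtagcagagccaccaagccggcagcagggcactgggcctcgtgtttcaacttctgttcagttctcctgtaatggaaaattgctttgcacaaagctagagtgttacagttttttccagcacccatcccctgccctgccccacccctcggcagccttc
Lrrc55 (chr2:85198751-85199000, minus strand): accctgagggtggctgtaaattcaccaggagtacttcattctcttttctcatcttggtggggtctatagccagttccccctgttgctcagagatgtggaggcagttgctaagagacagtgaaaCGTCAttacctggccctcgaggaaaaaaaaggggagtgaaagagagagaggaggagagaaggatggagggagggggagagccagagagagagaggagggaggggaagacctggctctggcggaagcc
Kcnip2 (chr19:45816064-45816313, minus strand): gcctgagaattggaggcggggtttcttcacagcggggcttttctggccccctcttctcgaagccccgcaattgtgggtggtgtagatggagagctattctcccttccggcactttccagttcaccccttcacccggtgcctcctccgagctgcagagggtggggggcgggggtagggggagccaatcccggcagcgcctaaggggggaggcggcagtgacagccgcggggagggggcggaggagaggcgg
Kcnk5 (chr14:20181783-20182032, minus strand): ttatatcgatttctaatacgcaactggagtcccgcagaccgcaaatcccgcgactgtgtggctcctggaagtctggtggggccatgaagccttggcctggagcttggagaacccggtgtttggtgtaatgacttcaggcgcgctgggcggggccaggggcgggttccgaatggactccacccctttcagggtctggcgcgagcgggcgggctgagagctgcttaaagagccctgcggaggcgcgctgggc
Kcnh8 (chr17:52602459-52602709, plus strand): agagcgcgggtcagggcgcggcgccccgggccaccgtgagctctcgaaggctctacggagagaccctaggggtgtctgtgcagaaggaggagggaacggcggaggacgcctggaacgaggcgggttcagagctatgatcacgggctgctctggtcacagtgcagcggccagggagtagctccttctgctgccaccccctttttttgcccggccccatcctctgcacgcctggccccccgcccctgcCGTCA
Kcnt2 (chr1:140245468-140245717, plus strand): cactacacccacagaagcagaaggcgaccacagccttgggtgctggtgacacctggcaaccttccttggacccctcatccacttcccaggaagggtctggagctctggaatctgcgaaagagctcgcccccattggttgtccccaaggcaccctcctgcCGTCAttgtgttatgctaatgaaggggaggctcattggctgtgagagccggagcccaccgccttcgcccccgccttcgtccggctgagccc
The core began 4 bases before the start in Kcnh8, 91 bases before it in Kcnt2 and 127 bases before it in Lrrc55. It thus stood in both genes shown that rose and in 1 that fell. It was not in the stretches shown for Lrrc52, Kcnip2 and Kcnk5. The genes shown are a choice and do not stand for the others. Among members not shown, the windows of Kcne3 and Kcnk1, which rose, and of Kcnk2, which fell, held no core.

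In RefSeq windows from 250 bases before to 50 after the start, read on both strands, 70 of the 92 members had a sequence. Kcnu1 and Kcnab3, the members with the largest falls, had no window, so their promoters were not searched. The paper, from its comparison with published CREM ChIP-seq data of testis, lists Kcnu1 as not bound by CREM. The whole CRE was in 0 of the 70 windows, against 549 of 27025 genes (2.03%). The core, which every whole CRE also contains, was in 17 of 70 members (24.3%) and in 6228 of all genes (23.0%). It was in 0 of 8 windows of members that fell, in 6 of 15 of members that rose (Kcnh8, Kcnt2, Kcnj6, Kcng3, Kcne4 and Kcne2) and in 11 of 47 of members that were not called. A match is a run of letters and not a measured binding site.

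The auxiliary subunits of voltage-gated channels held the second largest fall of the family. Of 13 auxiliary subunits and regulators 4 fell (30.8%, against 13.2% of all genes), 3 rose (23.1%, against 31.1%) and 6 were not called. Kcnab3, a cytoplasmic beta subunit of Kv1 channels, read 7.68, 7.80, 7.88, 7.99 and 8.11 in WT and 5.99, 6.29, 6.29, 6.12 and 6.24 in KO, so that 26.7% to 32.9% of the WT mean was left. The change was −1.71 ± 0.09 (SE, limma adjusted p = 2.1e-09), and it was −1.50 in batch 2, −2.00 in batch 4 and −1.75 with the block. Its neighbours in the RefSeq order, Trappc1 (0.18) and Rnf227 (0.36), both rose. Kcnab1 and Kcnab2 encode the other beta subunits of that family. Kcnab1 read 6.96, 6.92, 6.95, 6.71 and 6.90 in WT and 6.23, 6.28, 6.20, 6.22 and 5.98 in KO, with WT replicate 4 and KO replicate 5 low in their groups, a change of −0.71 ± 0.07 (SE, limma adjusted p = 3.31e-06). Kcnab2 changed by 0.35 ± 0.14 (SE, limma adjusted p = 0.0666) and was not called, with KO replicate 4 at 8.54 and the other KO arrays at 7.83 to 7.89, and it was called higher without WT replicate 1 (0.42) and with neither KO replicate 2 nor 3 (0.46).

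Of the calcium-binding KChIP subunits, which join Kv4 channels, Kcnip1 and Kcnip2 fell. Kcnip2 read 7.27, 7.38, 7.16, 7.64 and 7.50 in WT and 6.50, 6.30, 6.24, 6.48 and 6.26 in KO, a change of −1.03 ± 0.09 (SE, limma adjusted p = 8.15e-07) with no overlap. Kcnip1 fell by 0.58 ± 0.07 (SE, limma adjusted p = 1.26e-05), from 6.12 ± 0.12 to 5.54 ± 0.07 (SD, n = 5 each), without overlap and at levels in the lowest 25% of features. Kcnip3 (0.05) and Kcnip4 (0.15) were not called, although Kcnip4 was called higher within batch 4 (0.53) and with neither KO replicate 2 nor 3 (0.34), and was −0.24 within batch 2. The Kv4 pores that these subunits join all rose, Kcnd1 by 0.29, Kcnd2 by 0.38 and Kcnd3 by 0.44, although with batch as a block Kcnd1 was no longer called (0.20).

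The single-span KCNE subunits rose or were not called. Kcne3, which keeps KCNQ1 channels open, read 11.03, 11.02, 11.27, 11.31 and 11.03 in WT and 11.68, 12.08, 11.55, 12.00 and 11.58 in KO. Every KO array lay above every WT array, with KO replicates 2 and 4 highest, and the change was 0.64 ± 0.11 (SE, limma adjusted p = 4.09e-04). The rise of Kcne3 was 0.44 in batch 2 (limma adjusted p = 0.0722, not called), 0.72 in batch 4 and 0.58 with the block. Kcne4 rose by 0.42 and Kcne2 by 0.32, the latter called neither with the block (0.12) nor with housekeeping centring (0.28). The call of Kcne2 also ended without any of WT replicates 1, 2 and 4 and KO replicates 1 and 2, with changes of 0.24 to 0.31. Kcne1 (−0.01) and Kcne1l (−0.14) were not called, and Kcnq1, the pore that KCNE subunits join, fell by 0.28 ± 0.08 (SE, limma adjusted p = 0.00971).

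The pores of voltage-gated channels held the largest rise. Of 25 measured 3 fell (12%, against 13.2% of all genes), 6 rose (24%, against 31.1%) and 16 were not called. Kcnh8 encodes an ELK channel of the ether-a-go-go family, and read 6.45, 6.61, 6.16, 6.23 and 6.46 in WT replicates 1 to 5 and 8.51, 8.56, 8.18, 8.35 and 8.50 in KO replicates 1 to 5. Every KO array lay more than 1 log2 unit above every WT array. The rise was 2.04 ± 0.10 (SE, limma adjusted p = 8.51e-10), 4.11-fold, and 21 of all genes (0.107%) rose by at least as much. Its second feature rose by 1.21 ± 0.09 (SE, limma adjusted p = 6.86e-08), from 6.79 ± 0.18 to 8.00 ± 0.10 (SD, n = 5 each). The 2 features thus gave the same direction and different sizes. In batch 2 the change was 1.77, in batch 4 it was 2.00 and with the block 1.89. The nearest measured genes to Kcnh8 on chromosome 17 lie far from it, Satb1 at 769 kb and Efhb at 419 kb. Both rose, the chromatin organiser Satb1 by 0.62 and Efhb by 0.98 ± 0.07 (SE, limma adjusted p = 3.83e-08).

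The other voltage-gated pores moved by less than 0.5. Kcnb2, a Kv2 pore at a low level, read 5.95, 5.73, 6.04, 5.81 and 5.76 in WT and 5.09, 5.37, 5.40, 5.41 and 5.62 in KO, a change of −0.48 ± 0.09 (SE, limma adjusted p = 0.00105) without overlap. Kcnq3, a pore of the M current of neurons, fell by 0.28. Among the relatives of Kcnh8, the ELK gene Kcnh3 rose by 0.23, a call lost with the block (0.18), whereas Kcnh4 (0.04), Kcnh2 (0.11), Kcnh1 (−0.06), Kcnh5 (−0.04) and Kcnh7 (−0.18) were not called. None of the measured Kv1 pores (Kcna1 to Kcna7 and Kcna10), the channels that Kcnab subunits join, was called, with changes of −0.15 to 0.04, although without WT replicate 4 Kcna1 was called lower (−0.19) and with the block Kcna10 was (−0.22, against −0.11).

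The electrically silent subunits, which alter other pores but form no channel alone, had no called fall. Of 10 measured 3 rose (30%, against 31.1% of all genes). Kcng3 rose by 0.44 ± 0.11 (SE, limma adjusted p = 0.00647), Kcnf1 by 0.35 and Kcng4 by 0.31. Kcng3 read 6.92, 7.12, 6.63, 7.13 and 6.81 in WT and 7.57, 7.06, 7.25, 7.47 and 7.48 in KO. KO replicate 2 lay within the WT range, and within batch 2 the change of 0.36 was not called. Kcng4 was not called with the block (0.21).

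**Figure D3:**
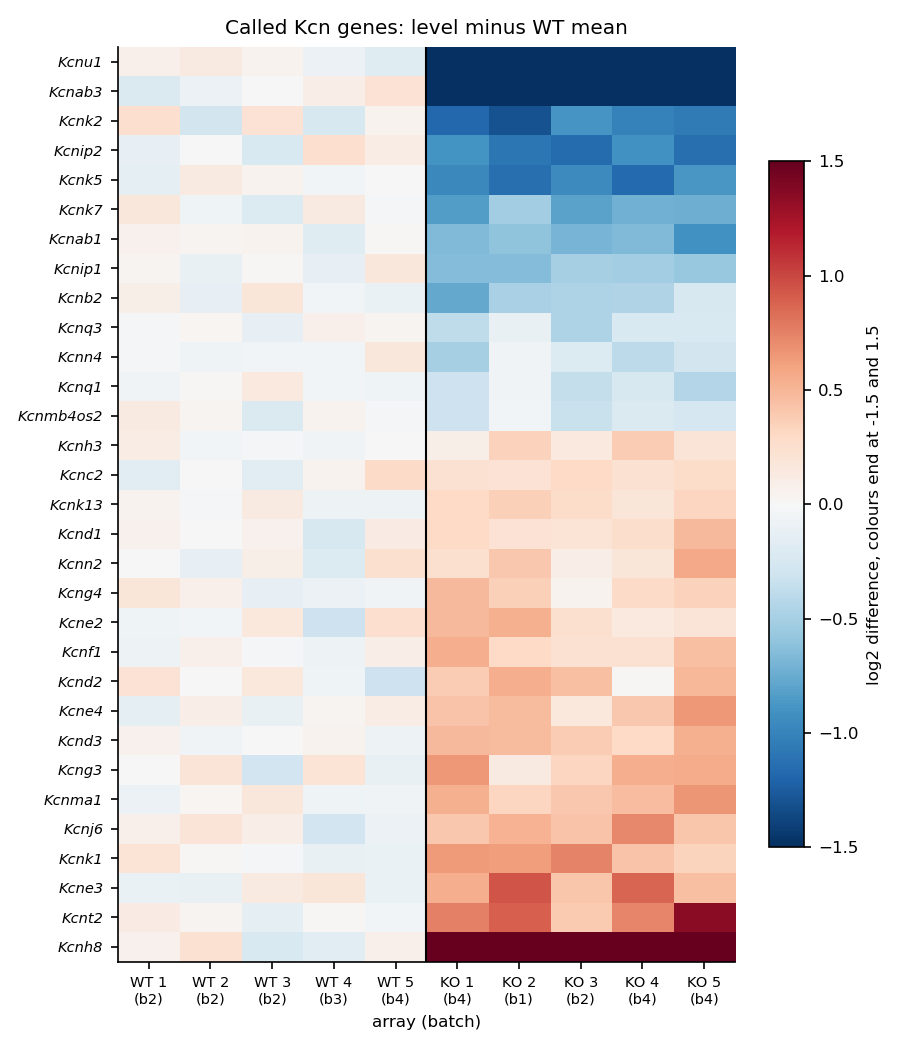
Level minus the WT mean (colour, log2, ending at −1.5 and 1.5) of the 31 called Kcn genes (rows, ordered by change) in the 5 WT and 5 KO arrays (columns, batch in brackets). The upper rows from Kcnu1 to Kcnip1 are low in all KO arrays, Kcnh8 is high in all of them, and most other rises stay under 0.5.

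Two-pore domain channels carry the potassium leak at rest. Of 14 measured 3 fell (21.4%, against 13.2% of all genes), 2 rose (14.3%, against 31.1%) and 9 were not called. Kcnk2, which encodes TREK-1, a leak channel opened by stretch and lipids, read 8.17, 7.64, 8.14, 7.67 and 7.98 in WT and 6.74, 6.61, 7.03, 6.91 and 6.86 in KO. Although the WT arrays spread over 0.5 log2 units, none reached the KO range, and the change was −1.09 ± 0.11 (SE, limma adjusted p = 4.12e-06). Its nearest measured neighbours were not lower, with Esrrg, 993 kb away, at 0.004 and the kinetochore gene Cenpf, 238 kb away, at 0.28.

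Kcnk5, which encodes TASK-2, a leak channel opened by alkaline pH, read 7.30, 7.58, 7.50, 7.40 and 7.45 in WT and 6.48, 6.31, 6.49, 6.28 and 6.57 in KO. The change was −1.02 ± 0.07 (SE, limma adjusted p = 9.14e-08), with an array level left of 44.6% to 54.5% of the WT mean. Of its neighbours, Saysd1 fell by 1.34 ± 0.08 (SE, limma adjusted p = 7.71e-09) and Kcnk16, also a leak channel gene, changed by −0.08 and was not called. Kcnk7, a relative not known to form a working channel alone, fell by 0.72 ± 0.08 (SE, limma adjusted p = 1.04e-05), from 7.07 to 7.45 in WT to 6.45 to 6.75 in KO. Kcnk1, the weakly conducting TWIK-1, read 7.97, 7.79, 7.75, 7.66 and 7.67 in WT and 8.40, 8.39, 8.51, 8.20 and 8.10 in KO, a rise of 0.55 ± 0.09 (SE, limma adjusted p = 1.93e-04). Apart from Kcnh8, Kcnk1 was the member whose rise was called in each of the 22 alternatives. Kcnk13, the channel THIK-1, rose by 0.29, and its relative Kcnk12 (−0.20, not called) was called lower without WT replicate 4 (−0.25). Kcnk10 (0.15, not called) was called higher with the block (0.22).

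Inward rectifiers pass potassium more readily into the cell than out of it. Of 15 measured, 1 rose (6.67%, against 31.1% of all genes) and 14 were not called, with changes of −0.20 to 0.13. These 14 include Kcnj8 (0.01) and Kcnj11 (−0.07), the pores of ATP-sensitive channels. Kcnj6, the G protein-activated channel GIRK2, read 6.40, 6.51, 6.42, 6.03 and 6.23 in WT and 6.73, 6.84, 6.75, 7.04 and 6.73 in KO. The groups did not overlap, and the rise was 0.50 ± 0.09 (SE, limma adjusted p = 7.88e-04), although in batch 2 it was 0.30 and not called. Kcnj3 (−0.05) and Kcnj5 (−0.03), whose products pair with GIRK pores, were not called.

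The small- and intermediate-conductance channels, opened by calcium through calmodulin, moved by at most 0.30. Of 4 measured, Kcnn4 fell by 0.28 ± 0.08 (SE, limma adjusted p = 0.0148), Kcnn2 rose by 0.30 ± 0.10 (SE, limma adjusted p = 0.0297), and Kcnn1 (−0.01) and Kcnn3 (−0.16) were not called. Both calls had overlapping groups, and 1 of 4 in each direction is 25%, against 13.2% lower and 31.1% higher among all genes. Kcnn2 kept its call in 12 of 21 alternatives, and its change was 0.10 with the block, 0.11 in batch 2 and 0.09 in batch 4. Its call ended without any of WT replicates 1, 2 and 4 and KO replicates 2 and 5, with changes of 0.23 to 0.30. Without WT replicate 1, Kcnn3 was called lower (−0.21). Of the antisense RNAs, Kcnmb4os2 fell by 0.23 (limma adjusted p = 0.0287), and Kcnmb4os1 (−0.20) and Kcnd3os (−0.01) were not called. The call of Kcnmb4os2 ended without any of WT replicates 1, 2 and 4 and KO replicates 1, 3 and 5 (−0.23 to −0.20), and Kcnmb4os1 was called without KO replicate 4 (−0.26). Kcnmb4 itself changed by 0.01.

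The rises of members stood beside higher sums of spermatocyte, Sertoli, Leydig and endothelial markers in KO, with no overlap between the groups for any of these sums. Of the endothelial markers Tek (2.05), Cdh5 (1.15) and Vwf (0.58) rose, Flt1 (−0.18) fell, and Pecam1, Kdr, Emcn and Esam were not called. The 7 macrophage markers that rose did so by 0.25 to 1.52, while the sum with Aif1 (−2.80) was lower in KO. The part of other cell types in the rises was not tested.

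Sperm need potassium efflux together with proton and bicarbonate transport, sodium pumping and calcium entry, and a list of genes of these steps was read beside Kcnu1. It holds genes that the study picked out on these arrays, so its counts are not independent evidence of a direction. Of 23 listed 20 were measured, of which 8 fell (40%, against 13.2% of all genes), 6 rose (30%, against 31.1%) and 6 were not called. The median change was 0.004. By at least 1 in log2, 7 of the 20 fell, against 4.36% of all genes. No gene of the list rose by that much, and the highest change was 0.48. Car2, a carbonic anhydrase, read 10.98, 10.98, 10.69, 10.92 and 10.89 in WT and 5.96, 6.60, 6.55, 5.38 and 5.22 in KO, a change of −4.95 ± 0.23 (SE, limma adjusted p = 7.89e-10). Cftr, a chloride and bicarbonate channel, read 7.76, 8.72, 8.55, 8.43 and 8.55 in WT and 7.14, 7.21, 6.99, 6.99 and 7.03 in KO, a change of −1.33 ± 0.14 (SE, limma adjusted p = 5.48e-06), with WT replicate 1 nearest to the KO arrays.

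The parts of the sperm calcium channel CatSper did not move together. Among its pores Catsper3 (−5.44), Catsper1 (−4.37) and Catsper4 (−2.07) fell and Catsper2 (0.18) was not called, while the auxiliary genes Catsperb (0.26), Catsperd (0.28), Catsperz (0.23) and Efcab9 (0.33) rose. The sodium pump subunit of sperm Atp1a4 (−4.83), the bicarbonate-activated adenylyl cyclase Adcy10 (−1.60) and the exchanger Slc9b2 (−0.22) fell. The exchanger Slc9b1 (0.48) and the anion transporter Slc26a8 (0.43) rose, and the sperm sodium/proton exchanger Slc9c1 (0.16), the proton channel Hvcn1 (−0.10), Slc26a3 (0.03), Slc26a6 (−0.02) and Car4 (0.25) were not called. The list had 1 rise within batch 2 and 2 rises within batch 4. Several of the smaller calls changed with the setting. Slc9b2 (limma adjusted p = 0.0473) lost its call with further quantile normalisation (−0.18), median centring (−0.20), the block (−0.23), within batches 2 (−0.15) and 4 (−0.31), with trend and robust settings, and without any of WT replicates 1, 3 and 5 and KO replicates 1 and 5. Catsperb and Catsperd were not called with the block (0.15 and 0.23), with housekeeping centring (0.22 and 0.24) or within either batch. Catsperz lost its call without any of WT replicates 3 and 5 and KO replicates 1 and 3 (0.17 to 0.22), and Efcab9 within either batch (0.36 and 0.27). Catsper2 was called higher in 8 alternatives, among them median centring (0.20) and the fits without WT replicate 5 (0.23) and without KO replicate 2 (0.21). Kcnu1 and Lrrc52 thus fell by more than Catsper4 and by less than Catsper1, values that were not tested against each other.

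**Figure D4:**
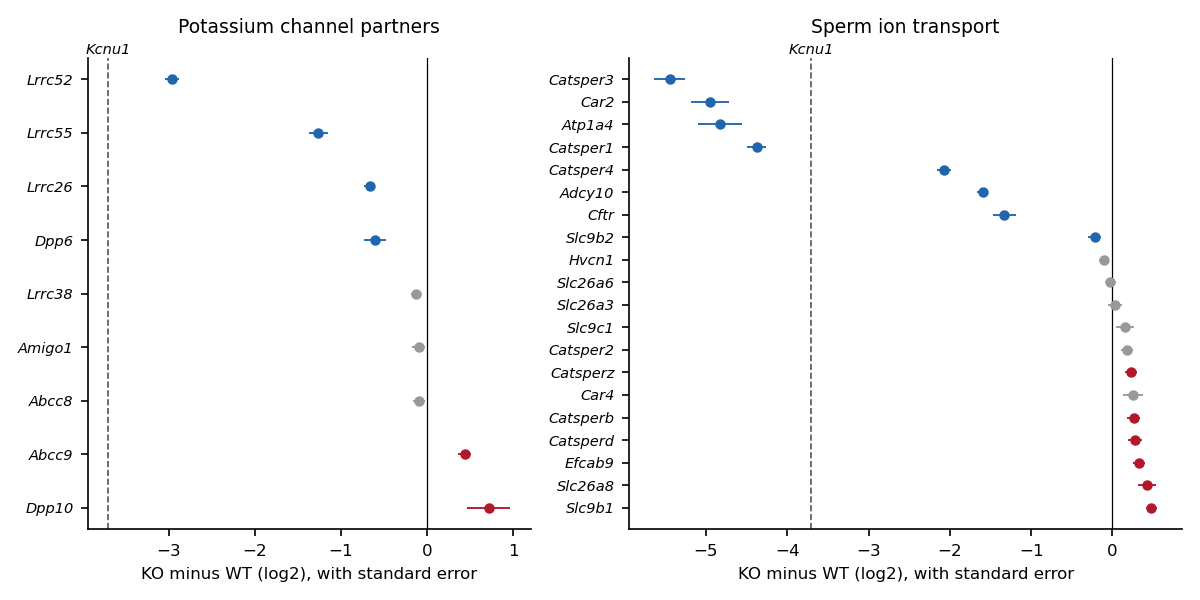
Change in KO testis (horizontal axes, KO minus WT in log2, bars show the standard error) of 9 partners of potassium channels and 20 genes of sperm ion transport, coloured blue where lower, red where higher and grey where not called. The dashed line marks Kcnu1 (−3.70), Lrrc52 lies closest to it among the partners, and the transport genes run from Catsper3 (−5.44) to Slc9b1 (0.48).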

How the data were processed

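Total RNA of whole testis was hybridised to 10 GeneChip Mouse Gene 1.0 ST arrays, 5 WT and 5 KO, 1 mouse each. The authors normalised the arrays with RMA limited to core transcripts (probes of a transcript averaged, quantile normalisation between arrays), and deposited log2 expression levels. Tool versions and the build of the probe annotation are not given in the sources used here. The table has 35557 rows, of which 9868 hold no value and 25689 features were used. Levels average probes along a gene, so isoforms cannot be told apart, relatives can share signal, and levels were not compared between genes.

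Features were named through the platform annotation, with symbols updated through RefSeq (GRCm38.p6). Features with 1 symbol numbered 20777 (20696 of them in RefSeq), those with several 232 and those without 4680. Neighbours are the nearest measured genes on each side in the RefSeq order, at whatever distance, and promoter windows are those of RefSeq (GRCm38.p6).

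KO was compared with WT on the deposited log2 values by limma 3.58.1 under R 4.3.3, with lmFit and two-sided eBayes tests and no further term. The Benjamini-Hochberg adjustment covered all features, and the threshold was 0.05. The code was tested on simulated data. The number of arrays limits the precision. The members, roles and lists (channel partners, sperm ion transport, 9 lists of cell type markers and a housekeeping list of which 2 of 9 genes fell and 3 rose) were chosen with earlier results of these data known. The rule for genes given in full was Kcnu1, called members without overlap that changed by at least 0.5, the member with the largest change in each role, and of the partner and transport lists Lrrc52 and called genes changed by at least 1, and the others were chosen after seeing their values.

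Alternatives were quantile normalisation once more, centring on the housekeeping list or on the array median, a fixed or random block for batch, batches 2 and 4 alone, trended and robust eBayes, array weights, the mean over the features of a gene, a filter that removed the lowest 25% of features, and omission of every array in turn. The fit with neither KO replicate 2 nor 3 was chosen after the data were seen.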

Additional observations from a re-analysis of the deposited data

Results flagged for a closer look

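The 25 genes given in full and Crem were examined for an array far from the others of its group, which made 52 groups of 5 arrays, and 3 were found, where chance alone flags about 1 in 20 groups. Kcnab1 in WT replicate 4 read 6.71, below the other WT arrays at 6.90 to 6.96, and Kcnab1 in KO replicate 5 read 5.98, below the other KO arrays at 6.20 to 6.28. Both arrays lay on the low side of their own group, the groups did not overlap, and the fall of Kcnab1 was called in each of the 22 alternatives. Catsper4 in KO replicate 2 read 8.46, above the other KO arrays at 8.41 to 8.43, a gap that is small beside its change of −2.07.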

How the results depend on the processing

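None of the genes given in full changed sign, and of the other called members Kcnc2 did within batch 4 (−0.04). The changes of Kcnu1, Kcnab3, Kcnk2, Kcnip2, Kcnk5, Kcnk7, Kcnab1, Kcnip1, Kcnh8 and Kcnk1 were called in every alternative that tested them. Members higher in KO numbered 18, but 2 within batch 2 and 9 within batch 4. Sperm ion transport genes higher in KO numbered 6, but 1 within batch 2 and 2 within batch 4. Potassium channel partners higher in KO numbered 2, but 1 with housekeeping centring, with batch as a fixed block, in batch 4, with trend and robust settings and with neither KO replicate 2 nor 3, and 0 in batch 2. Leaving out each array in turn gave 12 to 14 members lower, 16 to 18 higher and 1 to 2 partners higher. Without the lowest 25% of features 20 members were not tested, and 11 were lower and 16 higher.

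Batch 2 has a single KO array and batch 4 a single WT array, and the spread of each lone array is assumed to equal that of the others. The blocked fit draws on batches 2 and 4 only, since batches 1 and 3 hold 1 array each. No paired analysis was possible because replicate numbers follow the order of deposition and pair no mice. Of the members 20 lay in the lowest 25% by level, among them the called genes Kcnip1, Kcnb2, Kcnn2 and Kcnt2.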
